A study of Homo sapiens with 6 samples.

Results

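TXNIP, 3 of its alpha-arrestin relatives (ARRDC1, ARRDC2 and ARRDC3) and the 2 subunits of a glucose-sensing transcription factor (MLXIP and MLX) were examined in a human lung cancer line with reduced PPM1G. The genes were taken by symbol from the deposited count table. Of the 7 genes asked for, 6 were found among the 17534 genes of the table, and ARRDC4 is not analysed here. The set was chosen by the higher TXNIP level in the PPM1G knockdown libraries of this same comparison, with its relatives and regulators added, so the group differences of the 6 genes are given as a description and no p-value is given for any of them.

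The cells are NCI-H1703, which the labels call a line of lung squamous cell carcinoma. RNA sequencing covered 3 libraries of cells with a short hairpin RNA (shRNA) against PPM1G, a metal-dependent protein phosphatase of the nucleus, and 3 control libraries. The control genotype is written Sh-NC, with no meaning given for NC, while the series text calls the controls wild-type. The number of hairpins, and whether each library is a culture of its own, are not given in the sources. The p-values below therefore rest on a spread between libraries that may be technical.

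Alpha-arrestins share the arrestin fold with the beta-arrestins that turn off membrane receptors. Most carry short proline-rich motifs that bind ubiquitin ligases of the NEDD4 type, and through them receptors and nutrient transporters are taken off the cell surface. TXNIP also binds thioredoxin, the small protein that reduces disulfide bonds, and lowers glucose uptake by promoting the internalisation of glucose transporters. MLXIP (MondoA) with its partner MLX senses glucose-6-phosphate and binds carbohydrate response elements, which are pairs of E-box-like motifs. TXNIP and ARRDC4 are its classic targets, so the arrestins form a feedback on glucose entry.

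The libraries held 31337553 to 35838246 counts. The PPM1G transcript had 10557 to 11411 counts in the control libraries and 5879 to 7182 in the PPM1G shRNA libraries, and after scaling it stood at 0.585 of the control level. Of the squamous markers in the table, KRT6A, KRT14, DSG3 and PKP1 had 0 to 7 counts per library. TP63 had 39 to 60 counts in the control and 21 to 34 in the PPM1G shRNA libraries, and SOX2 had 747 to 841 and 323 to 417. Of the 4 lung adenocarcinoma markers, NKX2-1 had 3639 to 4417 counts, NAPSA had 68 to 83 in the control and 721 to 803 in the PPM1G shRNA libraries, SFTPB had 1 to 3 and SFTPC 0. Of the squamous keratins, KRT6A and KRT14 were thus at or near 0 in every library, while KRT5 was not found in the table, so its level is not known. Among markers of other cell types, PTPRC, CD3E, LYZ, CDH5 and LUM had 0 to 5 counts per library, and DCN 1 to 15. The summed FPKM of the immune markers was 704 to 736 in the control and 335 to 353 in the PPM1G shRNA libraries, nearly all of it CD68, which tumour lines can express. The 4 endothelial markers summed to 0.664 to 0.956 and 0.476 to 0.621 FPKM but differed in opposite directions. VWF had 11 to 23 counts in the control and 82 to 105 in the PPM1G shRNA libraries, KDR had 2 to 7 and 12 to 18, and PECAM1 had 161 to 219 and 31 to 49. The 5 fibroblast markers, mostly COL1A1, summed to 26.1 to 28.9 and 62.2 to 63.3 FPKM, and they too differed in opposite directions. COL1A1 had 5081 to 5676 counts in the control and 11317 to 12666 in the PPM1G shRNA libraries. PDGFRB had 107 to 164 and 286 to 390, whereas COL1A2 had 188 to 256 and 111 to 161. The part of these shifts in the results was not tested, and fewer cells of a type and less RNA per cell cannot be told apart. With edgeR's quasi-likelihood test at an adjusted p under 0.05, 82.9% of the 13060 genes tested were called, 41.5% higher and 41.3% lower after knockdown, so that being called sets no gene apart.

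Between genes, levels were compared as FPKM, which divides by gene length. In the control libraries TXNIP stood highest at 39.5 ± 4.9 FPKM (SD, n = 3), followed by MLX at 22.9 ± 0.45 and ARRDC1 at 9.14 ± 0.69. ARRDC3 (7.25 ± 0.26 FPKM) and MLXIP (7.0 ± 0.31 FPKM) came next with overlapping ranges, and ARRDC2 was lowest at 5.11 ± 0.082 FPKM. In the PPM1G shRNA libraries the order was TXNIP at 547 ± 2.8 FPKM, ARRDC3 at 29.2 ± 0.76, MLX at 22.4 ± 0.44 and ARRDC2 at 15.2 ± 0.51. ARRDC1 (8.65 ± 0.93 FPKM) and MLXIP (8.12 ± 0.082 FPKM) followed, and their ranges overlapped. ARRDC3 and ARRDC2 thus stood below ARRDC1 in every control library and above it in every PPM1G shRNA library.

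**Figure D1:**
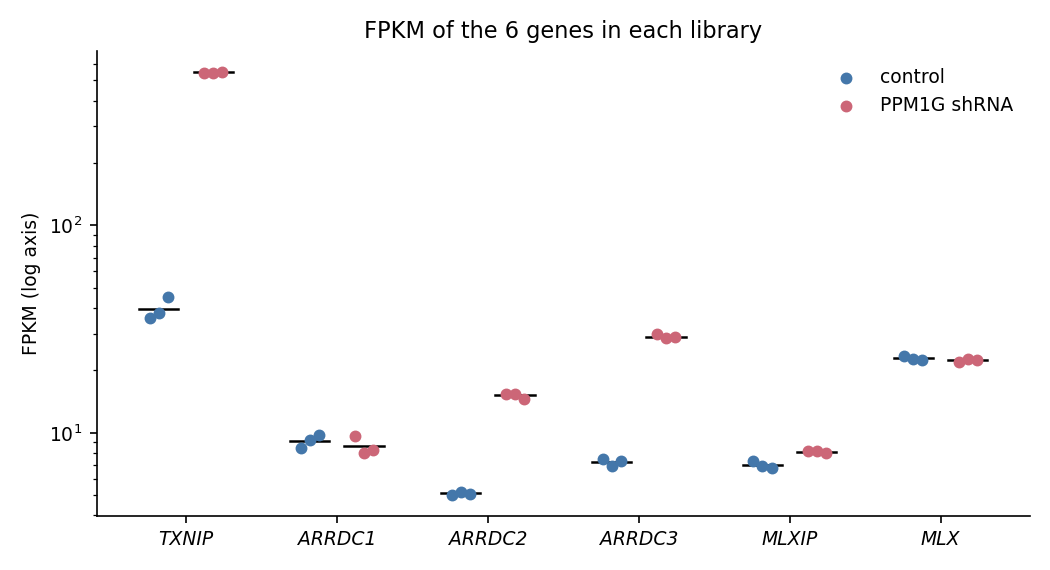
FPKM of the 6 genes on a log axis, with 1 point per library (control in blue, PPM1G shRNA in red) and a black line at the mean of 3 libraries. TXNIP lies at 35.6 to 45.0 FPKM in the control and 545 to 550 FPKM in the PPM1G shRNA libraries, while the points of ARRDC1 and MLX overlap between the groups.

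Between libraries, levels were compared as CPM, counts scaled to the library total and its TMM factor. Of the 6 genes, 4 (TXNIP, ARRDC2, ARRDC3 and MLXIP) were called higher and 2 (ARRDC1 and MLX) lower after knockdown, beside 41.5% and 41.3% of all genes. With library totals alone, the same 4 were called higher and 0 lower, beside 46.8% and 36.9% of all genes. TXNIP, ARRDC2 and ARRDC3 were at least 2-fold higher, beside 11.8% of all genes. CPM ranges were separate in 5 of the 6 genes, all but ARRDC1, beside 83.7% of all genes, and FPKM ranges in 4, all but ARRDC1 and MLX, beside 84.2%. The median log2 fold change was 0.79 over the 6 genes and 0.01 over all genes tested.

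TXNIP, the inhibitor of thioredoxin and of glucose uptake, lies on chromosome 1 (Entrez 10628; chr1:145992435-145996579, GRCh38.p14), and no other RefSeq gene overlaps it. Control libraries 1 to 3 had 4019, 4263 and 5102 counts, or 117.3, 124.2 and 148.1 CPM. The PPM1G shRNA libraries 1 to 3 had 54159, 61860 and 62544 counts, or 1674, 1671 and 1684 CPM. All 3 PPM1G shRNA libraries were far above the control libraries, of which the third was the highest. The log2 fold change was 3.69 (SE 0.10), a 12.9-fold difference, and only 37 of the 13060 genes tested had a larger one. Ranked by FPKM, TXNIP moved from places 1431 to 1887 of all genes in the control libraries to places 34 and 35 in the PPM1G shRNA libraries.

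The TXNIP promoter is shown because the carbohydrate response element is known to lie close to the start of this gene. The 250 bases before each annotated RefSeq start (GRCh38.p14) were searched, with the 50 bases after it, on both strands. The motifs were the E-box-like CACGNG, the full E-box CACGTG (a special case of it), and CCAAT, the motif of the factor NF-Y, where N is any base. Capitals mark matches to CACGNG or CCAAT in either orientation, so that CACGNG may read as CNCGTG and CCAAT as ATTGG.
TXNIP, start 1 (chr1:145996580-145996829, minus strand): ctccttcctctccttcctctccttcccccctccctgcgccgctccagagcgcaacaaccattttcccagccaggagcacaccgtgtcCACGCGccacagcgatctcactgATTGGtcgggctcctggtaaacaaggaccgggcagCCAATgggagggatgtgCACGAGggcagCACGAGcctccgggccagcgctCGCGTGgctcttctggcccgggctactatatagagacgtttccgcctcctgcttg
Counting from the start, the 4 E-box-like matches lie at −163, −88, −77 and −55 and the 2 CCAAT matches at −140 and −105. The matches at −88 and −77 have the same orientation and are separated by 5 bases, the spacing of a carbohydrate response element. An E-box-like match was present in 30.5% of 35116 RefSeq promoters of the same length, at least 4 of them in 0.524%, and CCAAT in 34.6%. A pair of CACGNG matches on the same strand with 5 bases between them was present in 20 promoters (0.057%). The inverted pair, CACGNG and then CNCGTG with 5 bases between them, was present in 8 (0.0228%) and in no window of the 6 genes. The same-strand pair and CCAAT were added to the search after the TXNIP promoter had been seen. The second TXNIP start, inside the gene, had 0 matches to any of these motifs.

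Of the 20 genes whose promoter holds the same-strand pair, 14 were tested, and 7 of them, TXNIP included, were called higher and 6 lower after knockdown, beside 41.5% and 41.3% of all genes. Their median log2 fold change was 0.05. These shares are near those of all genes, and nothing is read from them about the motif. Apart from TXNIP they ranged from −1.26 (SE 0.03) for RAN, the nuclear transport GTPase, to 1.53 (SE 0.11) for the myosin light chain gene MYL5.

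ARRDC3, which is known for its part in the trafficking of membrane receptors and integrin beta 4, showed the second largest difference. The gene (Entrez 57561; chr5:91368631-91383317) overlaps the long non-coding RNA gene ARRDC3-AS1, and without a stated strand setting their reads cannot be told apart. Control libraries 1 to 3 had 37.9, 35.2 and 37.0 CPM and the PPM1G shRNA libraries 142, 135 and 136 CPM. The 2 groups were far apart and each was tight, with a coefficient of variation of 3.77% and 2.85%. The log2 fold change was 1.91 (SE 0.04), or 3.75-fold, and 378 genes had a larger one.

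ARRDC2, a less studied relative that also binds NEDD4-type ligases, was the lowest of the 6 genes in the control libraries. The gene (Entrez 27106; chr19:18001124-18014102) has no overlapping RefSeq gene. Control libraries 1 to 3 had 15.4, 15.9 and 15.5 CPM and the PPM1G shRNA libraries 44.3, 44.0 and 41.5 CPM. Every PPM1G shRNA library was far above every control library. The log2 fold change was 1.47 (SE 0.06), or 2.77-fold.

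The promoters of ARRDC3 and ARRDC2, the other members with a large difference, are shown for comparison with that of TXNIP, with the same marking.
ARRDC3, start 1 (chr5:91383318-91383567, minus strand): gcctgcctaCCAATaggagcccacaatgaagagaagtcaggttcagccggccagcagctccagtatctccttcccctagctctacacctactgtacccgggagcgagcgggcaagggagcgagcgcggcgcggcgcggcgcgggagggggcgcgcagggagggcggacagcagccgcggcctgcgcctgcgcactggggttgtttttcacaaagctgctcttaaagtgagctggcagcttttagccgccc
ARRDC2, start 1 (chr19:18000874-18001123, plus strand): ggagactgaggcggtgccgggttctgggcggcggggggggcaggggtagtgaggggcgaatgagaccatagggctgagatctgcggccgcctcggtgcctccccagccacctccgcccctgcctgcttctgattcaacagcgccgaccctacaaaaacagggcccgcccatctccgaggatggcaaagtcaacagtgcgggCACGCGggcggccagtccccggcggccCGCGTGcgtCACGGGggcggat
The first ARRDC3 start has a CCAAT match at −241 and no E-box-like match, and its second start has 1 E-box-like match at −193. The first ARRDC2 start has 3 E-box-like matches, at −49, −22 and −13, none of them spaced by 5 bases, and its second start has only a CCAAT match at −93. The first starts of TXNIP, ARRDC3 and ARRDC2 thus held different numbers and arrangements of matches.

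ARRDC1 is known for driving the budding of small vesicles from the plasma membrane with the ESCRT protein TSG101. The gene (Entrez 92714; chr9:137605686-137615360) overlaps the long non-coding RNA gene ARRDC1-AS1 at 1 end. Reads in that overlap cannot be told apart either. Control libraries 1 to 3 had 37.0, 40.4 and 43.0 CPM and the PPM1G shRNA libraries 39.8, 32.6 and 33.8 CPM. The groups overlapped, since PPM1G shRNA library 1 lay within the control range. The log2 fold change was −0.18 (SE 0.07), and it did not pass the threshold without PPM1G shRNA replicate 2 (−0.13) or replicate 3 (−0.15), or with library totals in place of TMM factors (−0.08). Without PPM1G shRNA replicate 1 it was −0.27. Relative to ARRDC1 in the same library, which needs no scaling between libraries, ARRDC3 went in FPKM from 0.796 ± 0.080 to 3.39 ± 0.26 and ARRDC2 from 0.560 ± 0.040 to 1.77 ± 0.17 (SD, n = 3).

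MLXIP encodes MondoA, the glucose-responsive subunit that moves to the nucleus when glucose-6-phosphate is high. The gene (Entrez 22877; chr12:122078756-122147344) overlaps no other RefSeq gene. Control libraries 1 to 3 had 66.1, 61.8 and 60.9 CPM and the PPM1G shRNA libraries 68.5, 68.6 and 67.3 CPM. The groups did not overlap, but the lowest PPM1G shRNA library was close to the highest control library. The log2 fold change was 0.11 (SE 0.04), and it did not pass the threshold without control replicate 2 (0.10) or control replicate 3 (0.09), and was 0.21 with library totals.

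MLX, the DNA-binding partner that MLXIP shares with the MXD repressors, shares part of its locus with another expressed gene. It (Entrez 6945; chr17:42567100-42573203) overlaps at 1 end the protein-coding gene PSMC3IP, a recombination factor whose level was 18.5 ± 0.97 CPM in the control and 1.97 ± 0.28 CPM in the PPM1G shRNA libraries. Without a stated strand setting, reads in the overlap cannot be told apart, and their part in the MLX difference was not tested. Control libraries 1 to 3 had 57.2, 55.6 and 55.0 CPM for MLX and the PPM1G shRNA libraries 50.05, 51.8 and 51.3 CPM. These CPM ranges did not overlap, whereas the FPKM ranges (22.5 to 23.4 and 21.9 to 22.7) did. The log2 fold change was −0.13 (SE 0.04) with TMM factors and −0.03 (SE 0.04) with library totals, where it did not pass the threshold. The promoter of MLX is shown because it is the only one of the 6 genes with the full E-box CACGTG, present in 7.26% of promoters, at −50 beside an ATTGG at −66.
MLX (chr17:42566850-42567099, plus strand): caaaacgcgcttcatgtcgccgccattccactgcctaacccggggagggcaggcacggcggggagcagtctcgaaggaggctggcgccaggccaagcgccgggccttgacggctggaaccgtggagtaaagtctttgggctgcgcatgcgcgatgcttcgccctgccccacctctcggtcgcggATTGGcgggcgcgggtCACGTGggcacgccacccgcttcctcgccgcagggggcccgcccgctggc
The plot of motif positions sets these windows side by side.

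**Figure D2:**
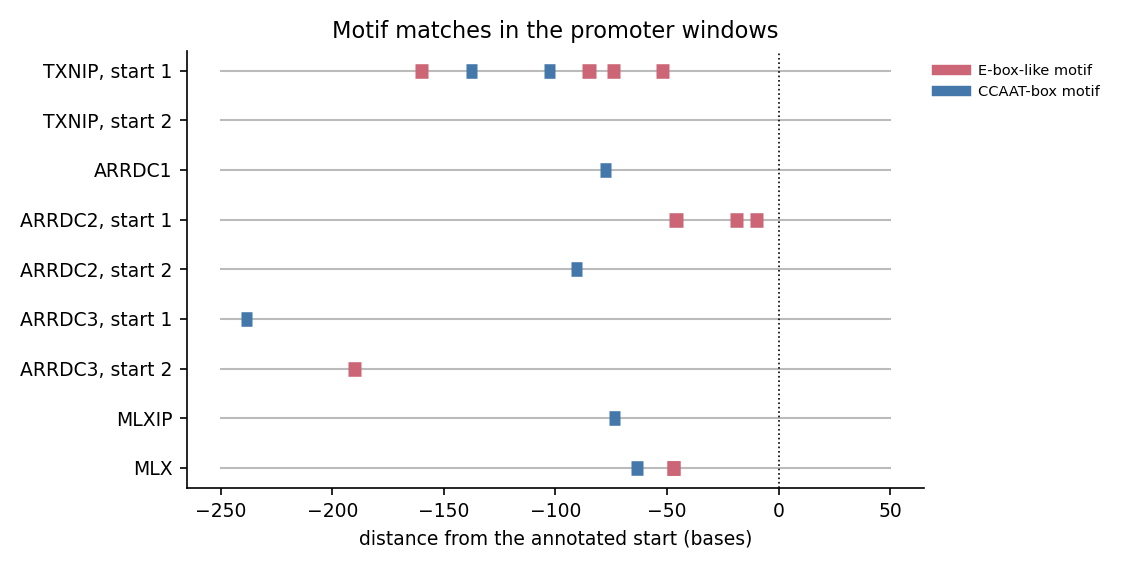
Matches to the E-box-like motif (red) and the CCAAT-box motif (blue) by distance in bases from each annotated RefSeq start of the 6 genes, with 250 bases before and 50 bases after it. The first TXNIP start holds 4 E-box-like matches, more than any other window shown.

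The ratio of MLXIP to MLX in FPKM was 0.306 ± 0.0074 in the control and 0.363 ± 0.0082 in the PPM1G shRNA libraries (SD, n = 3), and the ranges did not overlap. MLXIPL, which encodes ChREBP, the other glucose-responsive partner of MLX, had 2 to 5 counts in the control and 1 to 5 counts in the PPM1G shRNA libraries, and was below the expression filter. ARRDC5, the remaining gene of the family, had 0 to 1 and 0 to 5 counts and was below the filter too. Library totals in place of TMM factors moved the median log2 fold change of all genes from 0.015 to 0.115. The small differences of ARRDC1, MLXIP and MLX thus depend in size on the scaling. With library totals ARRDC1 (−0.08) and MLX (−0.03) did not pass the threshold, while MLXIP went from 0.11 to 0.21 and still passed. The differences of TXNIP, ARRDC2 and ARRDC3 were far larger than the shift of the median, as the plot of both scalings shows.

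**Figure D3:**
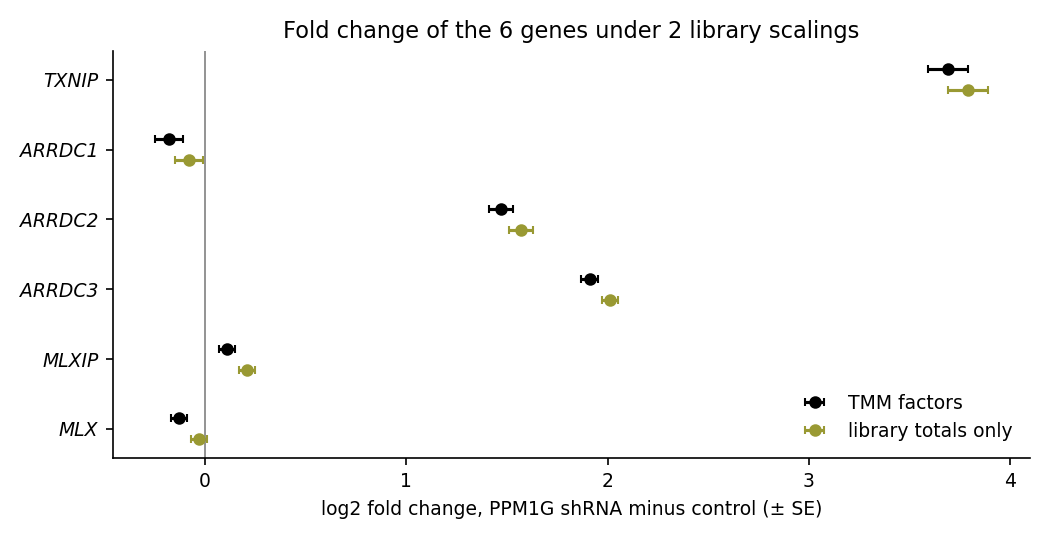
Log2 fold change of the 6 genes with its standard error, from 3 PPM1G shRNA and 3 control libraries, with TMM factors (black) and with library totals only (olive). TXNIP, ARRDC3 and ARRDC2 lie above 1 under both scalings, and MLX moves from −0.13 to −0.03.

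**Figure D4:**
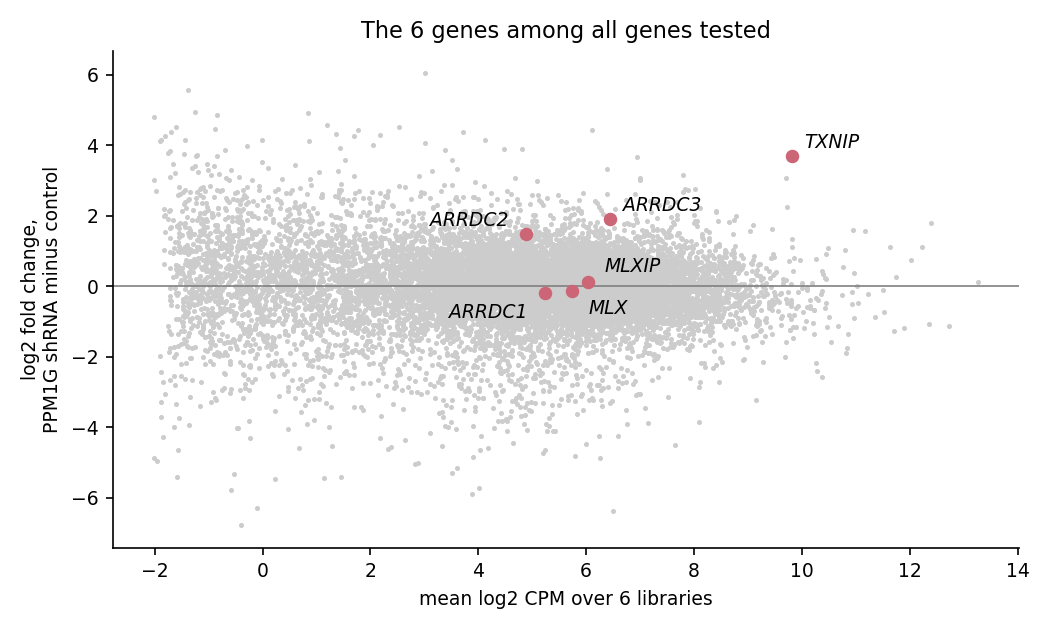
Log2 fold change against mean log2 CPM over the 6 libraries for the 13060 genes tested (grey), with the 6 genes in red. TXNIP stands at 3.69 with a high mean, set by the PPM1G shRNA libraries (1676 CPM, beside 129.9 CPM in the control libraries). ARRDC1, MLXIP and MLX lie close to 0.

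The balance within the family was compared as the share of the summed FPKM of TXNIP, ARRDC1, ARRDC2 and ARRDC3 in each library. TXNIP made up 63.0%, 63.9% and 67.0% in control libraries 1 to 3, and 90.8%, 91.3% and 91.4% in the PPM1G shRNA libraries. ARRDC1 went from 14.6% to 15.6% in the control libraries to 1.34% to 1.62%, ARRDC3 from 11.9% ± 1.2 to 4.86% ± 0.13 and ARRDC2 from 8.41% ± 0.75 to 2.53% ± 0.092 (mean ± SD, n = 3). ARRDC2 and ARRDC3 thus took a smaller share although their own levels were higher.

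The genes most like TXNIP over the 6 libraries were named by the root mean square distance between log2 CPM values centred on each gene's mean, among 10142 genes with a mean log2 CPM of at least 3. With 2 groups this distance mostly reflects the size of the group difference. The nearest was DDIT3, a stress-induced transcription factor gene, at a distance of 0.070. SLC43A2, an amino acid transporter gene, followed at 0.090. The next were PIK3IP1 at 0.156, the activin-family gene INHBE at 0.169 and SLC16A9 at 0.203. Of these 5 genes, all but DDIT3 had control means of only 0.893 to 3.53 CPM and reached the required mean through the PPM1G shRNA libraries, where they were high. In the control libraries DDIT3 had 17.7 ± 2.9 CPM and SLC43A2 3.53 ± 0.55 CPM. These values are not divided by gene length, so they are not compared with the level of TXNIP. ARRDC3 was 131st and ARRDC2 320th in likeness to TXNIP. For ARRDC3, taken in place of ARRDC4, the nearest genes were the complement protease gene C1R (0.031), EZH1 (0.033), ABHD4 (0.036), ATF4 (0.038) and BACH1 (0.040), and ARRDC2 was 235th. ATF4, a transcription factor of the integrated stress response, had a log2 fold change of 1.88 (SE 0.03) beside 1.91 for ARRDC3.

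Genes around TXNIP were then described by lists, with adjusted p-values from edgeR's quasi-likelihood test over all genes tested. Of all genes, 41.5% were called higher and 41.3% lower, so the counts of calls in the lists are a description only. The lists were chosen with earlier results of these data known, and many of their genes were named for the size of their difference. The adjusted p-values printed for list genes are therefore a description too. Thioredoxin itself fell and its reductase rose. TXN had 154, 154 and 156 CPM in control libraries 1 to 3 and 85.4, 84.6 and 83.4 CPM in the PPM1G shRNA libraries. It fell by 0.87 on the log2 scale (SE 0.04, edgeR adjusted p = 5.7e-21). TXNRD1, the reductase that recharges thioredoxin, rose from 1174 ± 3.6 to 3462 ± 52 CPM (log2 fold change 1.56, SE 0.02, edgeR adjusted p = 3.6e-32). Set against thioredoxin in FPKM, TXNIP stood at 0.177, 0.188 and 0.220 in control libraries 1 to 3, and at 4.56, 4.59 and 4.69 in the PPM1G shRNA libraries. TXNIP transcripts were thus fewer than those of TXN per length in each control library and more in each PPM1G shRNA library. Of 16 genes of the thioredoxin and peroxiredoxin system, 5 rose (TXNRD1, TXNRD2, TXNRD3, TXNL1 and SRXN1, which repairs oxidised peroxiredoxins) and 9 fell, with a median log2 fold change of −0.42 beside 0.01 over all genes. TXNRD3 was closest to the threshold (0.24, SE 0.10), and 4 rather than 5 genes rose with DESeq2 and without control replicate 2, PPM1G shRNA replicate 1 or PPM1G shRNA replicate 2. The peroxiredoxin gene PRDX1 fell by 1.2 (SE 0.03) and TXNDC17 by 1.15 (SE 0.09). MAP3K5, the stress kinase that reduced thioredoxin holds inactive, fell by 1.84 (SE 0.10), from 20.6 ± 0.51 to 5.75 ± 0.88 CPM.

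The genes of the main glucose transporters GLUT1 and GLUT3 rose, and those of the first glycolytic enzymes HK1, HK2 and GPI fell. SLC2A1, the GLUT1 gene whose protein TXNIP brings into the cell, rose from 286 ± 11 to 541 ± 2.9 CPM (log2 fold change 0.92, SE 0.03, edgeR adjusted p = 8.7e-24). SLC2A3, the GLUT3 gene, rose from 123.1 ± 3.5 to 314 ± 2.1 CPM (1.35, SE 0.03, edgeR adjusted p = 1.7e-27). HK2, one of the enzymes that make the glucose-6-phosphate that MLXIP senses, fell from 161 ± 1.9 to 66.1 ± 1.6 CPM (−1.28, SE 0.04, edgeR adjusted p = 4.8e-25). HK1 had 34514 to 35499 counts in the control and 18571 to 21231 in the PPM1G shRNA libraries (−0.83, SE 0.03). HKDC1 rose by 0.81 (SE 0.13). GPI, the next enzyme of glycolysis, fell by 1.42 (SE 0.04). Of 13 tested genes of glucose uptake and phosphorylation, 4 rose (SLC2A1, SLC2A3, SLC2A8 and HKDC1) and 8 fell, beside 41.5% and 41.3% of all genes. Their median was −0.27.

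Other genes described as targets of MLXIP or ChREBP changed in both directions. Of 21 such genes, 19 were in the table and 11 were tested. Of these 11, 3 rose and 5 fell, beside 41.5% and 41.3% of all genes, with a median of 0.01. The Krüppel-like repressor genes KLF10 (1.85, SE 0.05, from 115 ± 11 to 415 ± 10 CPM) and KLF11 (1.80, SE 0.05) rose, with the clock repressor gene BHLHE40 (0.95, SE 0.03). The lipogenic genes ELOVL6 (−1.47, SE 0.05), ACACA (−1.04, SE 0.05), FASN (−0.81, SE 0.03) and ACLY (−0.54, SE 0.03) fell with HK2. SCD, also lipogenic, did not pass the threshold (0.01, SE 0.03), nor did KHK (0.01, SE 0.33) and PFKFB3 (0.02, SE 0.07). PKLR, the textbook target of ChREBP in liver, was below the filter. Of the other partners of MLX, MNT fell by 0.25 (SE 0.05), and MXD4 passed the threshold with 0.12 (SE 0.05) but not with DESeq2, without control replicate 1 or without PPM1G shRNA replicate 3.

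Ligases and sorting proteins that work with alpha-arrestins changed in both directions. All 9 NEDD4-type ligase genes passed the threshold, beside 82.9% of all genes. Of the 9, 6 were higher and 3 lower, beside 41.5% and 41.3% of all genes, with a median of 0.34. HECW1 rose by 1.12 (SE 0.10), NEDD4L by 0.58 (SE 0.03), from 360 ± 14 to 540 ± 2.2 CPM, and SMURF2, WWP1 and HECW2 fell, by 0.70 (SE 0.03), 0.55 (SE 0.03) and 0.46 (SE 0.06). Of 14 ESCRT genes, 7 rose and 3 fell, beside 41.5% and 41.3% of all genes. With library totals 11 rose, beside 46.8% of all genes. The 3 that fell had log2 fold changes of −0.76 (SE 0.03) for HGS, −0.60 (SE 0.08) for MVB12A and −0.43 (SE 0.04) for VPS4A. MVB12B rose by 1.35 (SE 0.17) and VPS37D by 0.80 (SE 0.22), both at under 6 CPM. Among 5 tested relatives with the arrestin fold, the retromer-type genes VPS26C (0.81, SE 0.05) and VPS26A (0.68, SE 0.03) rose and ARRB2, a beta-arrestin gene, fell by 0.54 (SE 0.07). ARRB1 passed narrowly with 0.10 (SE 0.05). The higher calls of this list went from 3 to 2 with DESeq2's size factors or test, with no filter, with the replicate block, and without control replicate 2 or 3 or PPM1G shRNA replicate 2 or 3. VPS26B passed with −0.10 (SE 0.03) but not with library totals or limma on FPKM.

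AMPK is the energy sensor whose phosphorylation of TXNIP marks the protein for degradation, and LKB1 is its upstream kinase. Of 9 tested genes of AMPK and the LKB1 complex, 7 were higher and 0 lower in edgeR's test, beside 41.5% and 41.3% of all genes. No gene of this list was lower at an unadjusted p under 0.05 in edgeR or DESeq2, but STRADA, a partner of LKB1, passed as lower without control replicate 3. PRKAB1 rose by 0.99 (SE 0.05), STK11, the LKB1 gene, by 0.77 (SE 0.04), PRKAA2 by 0.70 (SE 0.05) and PRKAB2 by 0.64 (SE 0.05). The median of this list was 0.41, beside 0.01 over all genes. Of 5 inflammasome genes, which are included because TXNIP is known to bind NLRP3, CASP1 rose by 0.28 (SE 0.08) and NLRP3, PYCARD and IL18 fell. NLRP3 had 39 to 44 counts in the control and 3 to 13 in the PPM1G shRNA libraries. PYCARD had 19 to 37 and 2 to 19 counts, so its groups touched at 19, and IL18 fell by 1.52 (SE 0.12). Of the receptors described as cargo, INSR (0.58, SE 0.05) and IGF1R (1.01, SE 0.20, at under 4 CPM) rose, EGFR fell by 0.20 (SE 0.03), and ITGB4 had 2 to 8 counts per library. With library totals the log2 fold change of EGFR was −0.10, and it was −0.09 and not past the threshold in both limma fits on FPKM.

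**Figure D5:**
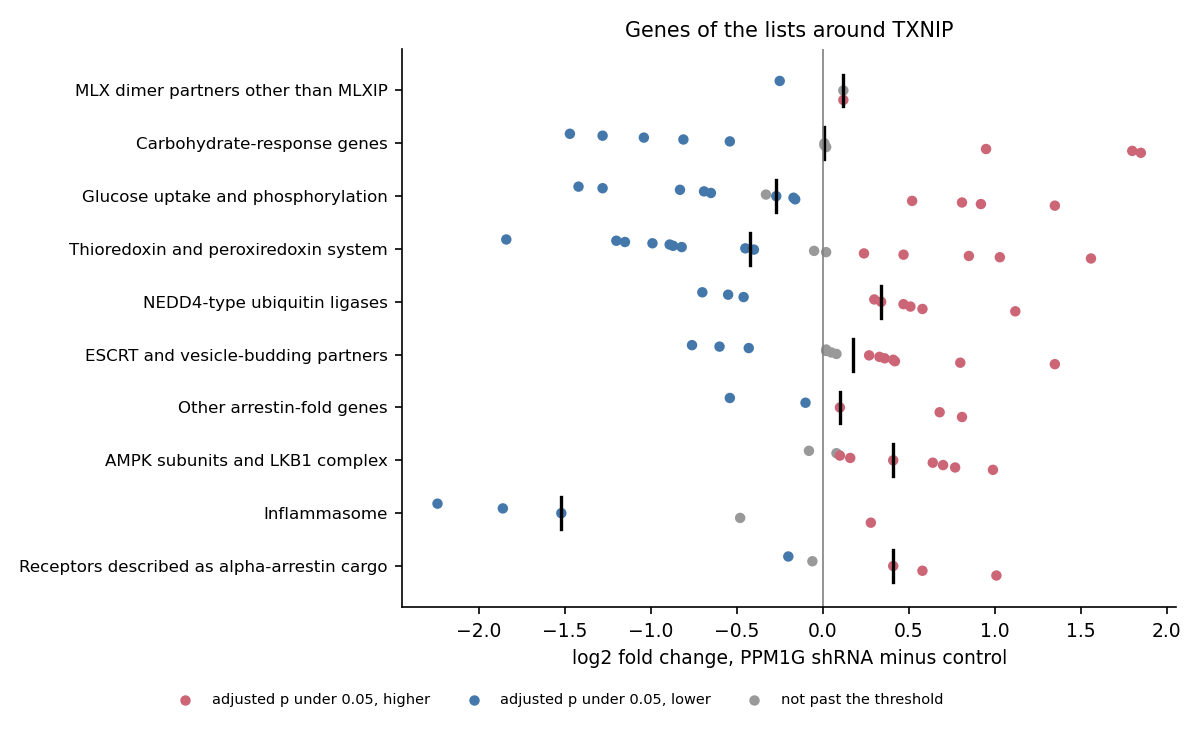
Log2 fold change of each tested gene in the 10 lists around TXNIP, with 1 point per gene (red for adjusted p under 0.05 and higher, blue for lower, grey for not past the threshold) and a black line at each list's median. The thioredoxin and inflammasome medians lie at −0.42 and −1.52, the median of AMPK and the LKB1 complex at 0.41.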

How the data were processed

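RNA sequencing libraries of NCI-H1703 cells, 3 control and 3 with an shRNA against PPM1G, were grouped by their titles. The authors deposited raw counts per gene, judged to be such because all values are whole numbers. They also deposited FPKM, and the values show that these follow from the same counts, a fixed length for each gene and the library total. GRCh38 is named in the submitters' processing notes. The sources used here do not give the aligner, counter, annotation or strand setting.

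Counts were fitted with edgeR 4.0.16 in R 4.3.3 (default expression filter at a minimum of 10 counts, TMM factors, robust quasi-likelihood fit, with group alone in the model). P-values were adjusted by Benjamini-Hochberg across the 13060 genes, and a gene was called below 0.05. The SE of a log2 fold change is its size over the square root of F. CPM are TMM-scaled, and SDs are over 3 libraries. Alternatives were edgeR with DESeq2's size factors, with library totals or with other filters, DESeq2 1.42.0, limma 3.58.1 on log2(FPKM + 1) and log2(FPKM + 0.1), a replicate block, and each library left out. Log2 CPM for likeness used a prior count of 2.

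The members and lists were chosen with earlier results of these data known. Always named were the 6 genes, PPM1G, ARRDC5, MLXIPL, TXN, TXNRD1, SLC2A1 and HK2, with up to 4 genes per list of the largest absolute log2 fold change past the threshold (minimum mean log2 CPM 1), as well as the 5 nearest genes in likeness. Further list genes, named to complete counts of up to 5, the genes with the paired motif and the overlapping gene PSMC3IP were chosen after their values were seen. Some list genes are not reported here. A planned likeness to ARRDC4 and a planned protein comparison were not made. No 2 libraries of a group were alike within counting noise (chi-square over its degrees of freedom 2.69 to 6.44). Promoters and positions are from RefSeq on GRCh38.p14, and Entrez IDs matched for 17483 of 17534 genes.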

Additional observations from a re-analysis of the deposited data

How the results depend on the processing

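TXNIP, ARRDC2 and ARRDC3 kept their direction and passed the threshold under all 14 alternatives, with log2 fold changes of 3.62 to 3.79, 1.41 to 1.57 and 1.87 to 2.01. ARRDC1 passed in 9, MLXIP in 12 and MLX in 11 of the 14, and none of the 6 genes changed sign. The number of members with a lower level was 2 in the fit reported, but 0 with library totals in edgeR and 0 with limma on log2(FPKM + 1) and on log2(FPKM + 0.1), where 0 were lower at an unadjusted p under 0.05 as well. DESeq2 called 2. Leaving out each library in turn gave 1 to 2 members lower and 3 to 4 higher. The number of list genes called was 74 and ranged from 71 to 79. With the replicate block, genes called over the whole table numbered 10805 instead of 10821, list genes called went from 74 to 73, and no member changed its call. Same-numbered libraries of the 2 groups correlated in their deviations from the group means by 0.047, 0.005 and 0.046 over 10143 genes, and not every library correlated best with its own number, so the numbers were not taken as pairs. With a prior count of 0.5, the 5 nearest genes to TXNIP and to ARRDC3 were the same genes.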

Other observations

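TXNIP was among the most variable of the abundant genes in the control libraries and among the least variable in the PPM1G shRNA libraries, a pattern noticed after the values were seen. Its coefficient of variation was 12.4% over the 3 control libraries, where counting error alone gives 1.5%. Only 7 of the 4982 genes with at least 50 CPM in the control libraries (0.141%) had a larger one, and the median was 3.18%. The 7 were CD99-2, NEDD8, IFITM2, GOLGA8B, TOMM7, RABAC1 and KIF21A. In the PPM1G shRNA libraries the coefficient of variation of TXNIP was 0.398%, close to the counting error of 0.41%, and 97.3% of 4951 genes had a larger one. The TXNIP level that set the control spread was that of control library 3, and without that library the log2 fold change was 3.79. ARRDC1 was also highest in control library 3, whereas ARRDC2, ARRDC3, MLXIP and MLX were not. Of the 7 more variable genes, GOLGA8B was highest in control library 2. CD99-2, NEDD8, IFITM2, TOMM7 and RABAC1 were highest in control library 3, and KIF21A was lowest there. That library also stood apart over the whole table. The chi-square over its degrees of freedom was 6.44 and 5.88 against control libraries 1 and 2, and 3.24 between those. The control spread is thus not particular to TXNIP. The spread was not tested.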
